A study of Mus musculus with 4 samples.

Results

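The genes of the BCL2 family that set the threshold of apoptosis were followed in cultured mouse cortical neurons given a p53 activator. The 10 members were taken by symbol from the deposited table of 18854 genes: the anti-apoptotic genes Bcl2, Bcl2l1, Bcl2l2 and Mcl1, the effectors Bax and Bak1, and the BH3-only genes Bbc3, Pmaip1, Hrk and Bcl2l11. Each member was listed and each passed the filter on low values, which was set at 1 CPM (reads of a gene scaled to the library's total) in at least 2 libraries. The neurons were wild-type and had been cultured for 15 days when they received Nutlin-3 for 2 days, and the other group carries DMSO in its titles although its treatment field reads as no treatment. Nutlin-3 is a small molecule that occupies the p53 pocket of Mdm2 and so spares p53 from degradation, and DMSO is the solvent such compounds are dissolved in. There were 2 libraries from p53 activator cultures and 2 from DMSO cultures, made from total RNA after ribosomal RNA depletion. The sources used here give no dose, no age of the animals and no statement that replicate libraries came from separate cultures, so p-values reflect the spread among these libraries alone, which may be technical.

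In the intrinsic pathway of apoptosis, Bax and Bak1 proteins open the outer mitochondrial membrane, which releases cytochrome c and starts the caspases. Anti-apoptotic proteins hold the effectors in check, and BH3-only proteins bind the anti-apoptotic proteins, or the effectors directly, when a cell is stressed. Bax, Bbc3 (which encodes PUMA) and Pmaip1 (which encodes NOXA) are textbook p53 targets, and deletion of Bax or Bbc3 protects many kinds of neuron from death after DNA damage. Hrk and Bcl2l11 (which encodes BIM) are best known in neurons for their induction through JNK signalling after loss of trophic support.

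The libraries held 19065197 and 17716272 counted reads for the p53 activator and 14584247 and 14968028 for DMSO. Mitochondrially encoded RNA took 8.95% and 9.98% of CPM with the activator and 15.6% and 14.3% in DMSO, and nuclear protein-coding genes took 83.0% and 82.6% with the activator against 73.4% and 75.8% in DMSO. The median log2 fold change of nuclear protein-coding genes was 0.09, beside 0.03 over all genes tested, and it moved by -0.14 when these genes were scaled to the total of protein-coding reads. Neuron markers were abundant in all libraries, with a summed level of 7545 and 7680 CPM with the activator and 6525 and 7315 CPM in DMSO, led by Map2. Of these 10 markers 7 rose and 1, Rbfox3, fell. Astrocyte markers, led by Slc1a2, summed to 2600.3 and 2602 CPM with the activator against 2255 and 2232 CPM in DMSO, and 1 of 8 rose. The oligodendrocyte lineage list, led by Olig1, summed to 191 and 188 CPM with the activator against 172 and 166 CPM in DMSO. Dividing cell markers, led by Mki67, summed to 73.3 and 70.9 CPM with the activator and 78.4 and 79.8 CPM in DMSO. Fibroblast genes, led by Dcn, summed to 13.4 to 15.4 CPM over the 4 libraries, and endothelial and pericyte markers, led by Pdgfrb, to 4.94 to 7.13 CPM, with the endothelial genes Cldn5 and Pecam1 not listed. The endothelial gene Kdr stood at a low level, 1.10 and 1.24 CPM with the activator against 0.343 and 0.601 CPM in DMSO. It passed the filter on low values only through the activator libraries. Its call as higher (limma adjusted p = 0.0364) therefore depended on the group where it was high. The microglia genes Cx3cr1 and Tmem119 were not listed either. The part of these other cells in the results below was not tested, and in bulk RNA fewer cells of a type and less RNA per cell cannot be told apart.

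Across the 10 members, shifts with the p53 activator were small. Bcl2l1, Bcl2l2 and Hrk rose, 7 members did not pass the test and 0 fell, in limma on log2(CPM + 1) with Benjamini-Hochberg adjustment over 16654 genes. The background was 16.9% of all genes called higher and 16.3% called lower, and among nuclear protein-coding genes 21.2% higher and 7.19% lower, so 3 of 10 members, or 30%, is not far from the protein-coding share. Positive log2 fold changes were found in 9 members, with Bax as the exception, beside 64.7% of nuclear protein-coding genes. Scaled to the protein-coding total, 7 members were positive, and Mcl1 and Bak1 were also negative. The 64.7% does not apply to that scale, where the median of nuclear protein-coding genes was itself negative (-0.05). The members' median log2 fold change was 0.23, against 0.09 for nuclear protein-coding genes, and the range ran from -0.04 for Bax to 0.31 for Pmaip1. Both activator libraries lay above both DMSO libraries for 7 members, a pattern found in 36.6% of all genes tested and 45.2% of nuclear protein-coding genes, and 0 members showed the opposite order, found in 30.9% and 19.8%. The count of members called was 0 without p53 activator replicate 1, 0 without DMSO replicate 1 and 1 without DMSO replicate 2, so leaving out any of these libraries ended calls. With nuclear protein-coding genes scaled to the total of protein-coding reads, 0 members were called by limma and 0 had an unadjusted p under 0.05, while the background was 4.37% called higher and 13.1% called lower. The members' median was then 0.08, against -0.05 for protein-coding genes. On that scale the groups stayed apart for Bcl2, Bbc3 and Hrk and overlapped for the other members, Bcl2l1 and Bcl2l2 among them. Cyclic loess over the same genes also left 0 members called, with 2 at an unadjusted p under 0.05 and a background of 5.20% called higher and 9.77% called lower. On whole reads recovered from the CPM steps, edgeR's quasi-likelihood test with TMM called 0 members, with 4 at an unadjusted p under 0.05 and a background of 10.6% of genes higher and 16.1% lower. DESeq2 called 0, with 2 at an unadjusted p under 0.05 and a background of 7.86% higher and 9.18% lower.

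**Figure D1:**
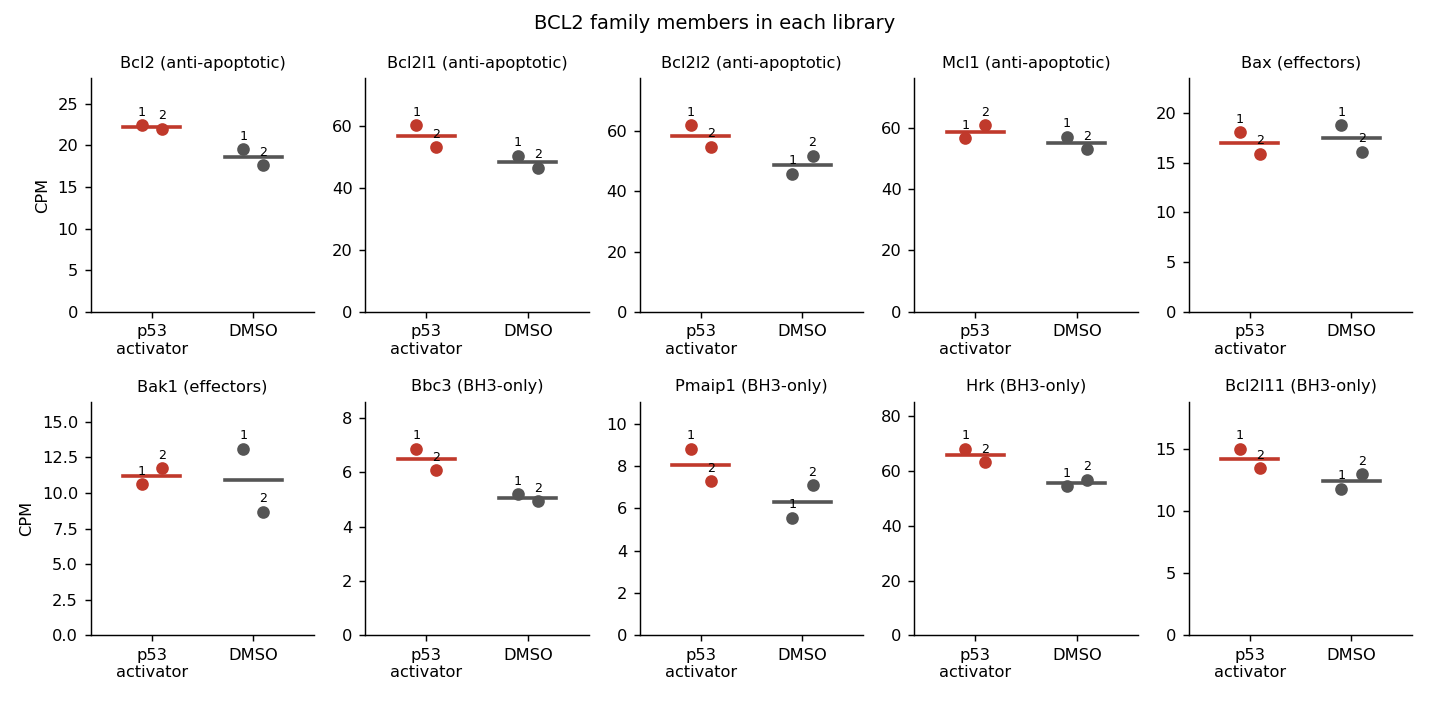
CPM of each member in each library, with p53 activator at the left and DMSO at the right of each panel. Points are single libraries numbered by replicate, bars are group means (n = 2), and each vertical axis starts at 0. The groups separate for 7 members, Bcl2, Bbc3 and Hrk among them, as they do with the activator higher in 45.2% of nuclear protein-coding genes. The 2 DMSO libraries of Bak1 lie on either side of its activator libraries.

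Reference promoter windows are shown for 3 members, because Nutlin-3 is known as an activator of p53, a transcription factor that binds a repeated decamer. Bax and Bbc3 are among its textbook targets, and Bcl2l1 rose. The sequences are RefSeq's for GRCm38.p6 and give the 250 bases before an annotated start, 5′ to 3′ on the gene's strand. Capitals mark a perfect match to the p53 decamer or to the GC box GGGCGG on either strand. The Bax window lies at chr7:45466899-45467148 on the minus strand, the first of 3 Bbc3 windows at chr7:16309333-16309582 on the plus strand, and the most upstream of 3 Bcl2l1 windows at chr2:152831729-152831978 on the minus strand.
Bax: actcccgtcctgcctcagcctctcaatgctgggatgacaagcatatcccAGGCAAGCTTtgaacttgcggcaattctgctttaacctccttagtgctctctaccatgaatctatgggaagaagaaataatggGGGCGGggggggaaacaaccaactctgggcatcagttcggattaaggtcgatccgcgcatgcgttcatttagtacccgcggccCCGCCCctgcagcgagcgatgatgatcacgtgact
Bbc3: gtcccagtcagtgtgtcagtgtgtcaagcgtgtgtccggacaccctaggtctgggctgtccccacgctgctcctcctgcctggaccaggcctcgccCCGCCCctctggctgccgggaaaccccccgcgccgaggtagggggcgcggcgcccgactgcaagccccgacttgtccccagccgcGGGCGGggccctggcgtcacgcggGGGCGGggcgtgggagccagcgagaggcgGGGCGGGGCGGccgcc
Bcl2l1: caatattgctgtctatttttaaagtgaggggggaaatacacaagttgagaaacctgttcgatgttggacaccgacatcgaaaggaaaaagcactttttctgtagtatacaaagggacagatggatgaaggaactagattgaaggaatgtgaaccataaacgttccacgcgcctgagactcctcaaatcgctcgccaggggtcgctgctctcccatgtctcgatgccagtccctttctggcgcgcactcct
The first run of capitals in the Bax window is a single p53 decamer that begins 201 bases before the start, and the other capitals there are 2 GC boxes. The Bbc3 window held 5 GC boxes, of which the last pair overlap, and 0 decamers, and the Bcl2l1 window held 0 of either motif. Over all 32841 windows of the same length, 7.13% held at least 1 p53 decamer and 32.7% at least 1 GC box. These matches describe the letters of the windows only.

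The anti-apoptotic genes gave 2 of the 3 rises. Bcl2l2, which encodes BCL-W, a protein of long-lived neurons and their axons, stood at 62.1 and 54.9 CPM with the activator and at 45.9 and 51.8 CPM in DMSO. Both activator libraries were above both DMSO libraries, but activator replicate 2 exceeded DMSO replicate 2 by little. The means were 58.5 ± 5.08 CPM with the activator and 48.9 ± 4.17 CPM in DMSO (SD, n = 2 each). That difference passed the test (log2 fold change 0.25 ± 0.09 SE, limma adjusted p = 0.0196). Bcl2l1, which encodes BCL-XL, the main anti-apoptotic protein of mature neurons, stood at 60.2 and 53.1 CPM with the activator against 50.4 and 46.5 CPM in DMSO. Its groups did not overlap, and its log2 fold change was 0.22 ± 0.09 (SE; limma adjusted p = 0.0439), close to the threshold of 0.05.

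Bcl2, the founder of the family and prominent in developing neurons, stood at 22.4 and 22.0 CPM with the activator against 19.5 and 17.6 CPM in DMSO. The activator libraries lay close together and both were above DMSO, yet the log2 fold change of 0.25 ± 0.11 (SE) missed the threshold (limma adjusted p = 0.0841). Mcl1, whose protein is turned over rapidly and which protects neural progenitors and neurons, stood at 56.6 and 60.9 CPM with the activator and at 57.1 and 53.05 CPM in DMSO. Its groups overlapped (log2 fold change 0.09 ± 0.09 SE, limma adjusted p = 0.434), and its 95% interval ran from -0.08 to 0.26. Scaled to the protein-coding total the log2 fold change of Mcl1 was -0.06. Summed over the 4 anti-apoptotic genes, the level was 201 and 191 CPM with the activator against 173 and 169 CPM in DMSO.

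The calls of Bcl2l1 and Bcl2l2 were lost under several alternatives, in some of which the fold change stayed as large. Leaving out p53 activator replicate 1 gave smaller log2 fold changes, 0.13 for Bcl2l1 and 0.17 for Bcl2l2 (limma adjusted p = 0.384 and 0.251). Without DMSO replicate 1 that of Bcl2l1 was larger, 0.28 (0.0841), and that of Bcl2l2 smaller, 0.17 (0.336), and without DMSO replicate 2 Bcl2l1 had 0.16 (0.308). Scaled to the protein-coding total the log2 fold changes were 0.07 for Bcl2l1 and 0.11 for Bcl2l2, with adjusted p-values of 0.625 and 0.432, and after quantile normalization 0.13 and 0.17 (0.275 and 0.168). In edgeR they were 0.19 and 0.22 (0.0960 and 0.0656) and in DESeq2 0.22 and 0.25 (0.203 and 0.155), close to the limma values. Bcl2l1 was also lost with no filter (0.0539) and with median-of-ratios size factors (0.0588), at log2 fold changes of 0.22 and 0.21. In GENCODE vM21, Bcl2l2 shares 594 exon bases with Gm20521, a gene on the same strand that was not listed under that symbol, so its reads may be split or joined with that gene's. Bcl2 likewise shares 558 exon bases with the antisense gene D630008O14Rik, and whether counting used strand is not given in the sources used here.

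Neither effector passed the test. Bax, the effector on which neuronal apoptosis chiefly depends, stood at 18.0 and 15.9 CPM with the activator and at 18.8 and 16.1 CPM in DMSO. Its libraries interleaved, and the log2 fold change was -0.04 ± 0.12 (SE; limma adjusted p = 0.850). The upper limit of its 95% interval, 0.21, lay below the 0.56 that a 1.5-fold rise of its DMSO level would show on this scale. Like every member's interval here, that of Bax draws mostly on the spread of genes of like level. It does not bound the change of Bax from these libraries alone. No library left out brought Bax past the test, with log2 fold changes between -0.14 and 0.07, so its direction was not fixed. Bax shares 192 exon bases with Gm45808 on the same strand, which was not listed under that symbol.

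Bak1, the second effector, which neurons are known to splice into a neuron-specific form, stood at 10.6 and 11.7 CPM with the activator and at 13.1 and 8.69 CPM in DMSO. The DMSO libraries lay on either side of the activator libraries, and their gap of 0.54 on the log2 scale exceeded the fold change of 0.06 ± 0.15 (SE; limma adjusted p = 0.797). Its log2 fold change was 0.33 without DMSO replicate 1 and -0.21 without DMSO replicate 2, neither of them called. The interval for Bak1 ran from -0.23 to 0.35, below the 0.54 of a 1.5-fold rise. That interval draws mostly on the spread of genes of like level and little on Bak1's own replicates. It therefore does not bound the change of Bak1 from these libraries alone. Bak1 overlaps Ggnbp1 on the opposite strand, which stood at 0.420 and 0.508 CPM with the activator and at 1.17 and 0.668 CPM in DMSO.

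Of the BH3-only genes Hrk rose, while Pmaip1, Bbc3 and Bcl2l11 did not pass the test. Pmaip1 and Bbc3 had larger log2 fold changes than Hrk (0.31 and 0.30 against 0.23). Their SEs were also larger (0.16 and 0.17 against 0.08), at lower levels, so the calls do not rank the changes of these genes. Hrk, which encodes Harakiri, a BH3-only protein of neurons, stood at 68.0 and 63.2 CPM with the activator against 54.4 and 56.8 CPM in DMSO. The groups were well apart, with means of 65.6 ± 3.36 CPM with the activator and 55.6 ± 1.71 CPM in DMSO (SD, n = 2 each). It thus rose (log2 fold change 0.23 ± 0.08 SE, limma adjusted p = 0.0250). The call was lost with smaller log2 fold changes when scaled to the protein-coding total (0.09, adjusted p = 0.516) and after quantile normalization (0.14, adjusted p = 0.196). It was also lost in edgeR (0.20, adjusted p = 0.0687) and in DESeq2 (0.23, adjusted p = 0.145), where the fold change was about as large. On the protein-coding scale Hrk stood at 81.9 and 76.6 with the activator against 74.0 and 75.0 in DMSO. The groups of the other called members overlapped on that scale. Bcl2l1 stood at 72.5 and 64.3 with the activator against 68.6 and 61.4 in DMSO. Bcl2l2 stood at 74.7 and 66.5 with the activator against 62.6 and 68.4 in DMSO. Hrk was not called without p53 activator replicate 1 (0.18, adjusted p = 0.185), DMSO replicate 1 (0.20, adjusted p = 0.211) or DMSO replicate 2, where its log2 fold change was larger (0.27, adjusted p = 0.0647).

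Bbc3, the p53 target most tied to neuronal death, stood at 6.87 and 6.10 CPM with the activator and at 5.21 and 4.94 CPM in DMSO, resting on 131 and 108 reads against 76 and 74. The groups did not overlap, and the log2 fold change of 0.30 ± 0.17 (SE) did not pass the test (limma adjusted p = 0.173). Its interval, -0.04 to 0.64, reached past the 0.50 that a 1.5-fold rise would show and stayed below that of a 2-fold rise. After quantile normalization Bbc3 had a log2 fold change of 0.46 and was called (adjusted p = 0.0314).

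Pmaip1, on chromosome 18, stood at 8.81 and 7.28 CPM with the activator and at 5.55 and 7.08 CPM in DMSO, from 168 and 129 reads against 81 and 106. Activator replicate 2 was barely above DMSO replicate 2, and the replicate gaps on the log2 scale, 0.24 with the activator and 0.30 in DMSO, were about as large as the fold change of 0.31 ± 0.16 (SE; limma adjusted p = 0.138). Its log2 fold change was 0.16 without DMSO replicate 1, 0.19 without p53 activator replicate 1 and 0.46 without DMSO replicate 2, none of them called. Quantile normalization brought it to 0.45 and past the threshold (adjusted p = 0.0454). Bcl2l11 stood at 15.0 and 13.4 CPM with the activator and at 11.8 and 12.96 CPM in DMSO, a log2 fold change of 0.19 ± 0.13 (SE; limma adjusted p = 0.292). A 2-fold rise lay above the upper limit of all 4 BH3-only genes, and a 1.5-fold rise above that of Hrk and Bcl2l11. These limits too draw mostly on the spread of genes of like level and little on each gene's own replicates. They therefore do not bound the changes from these libraries alone.

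**Figure D2:**
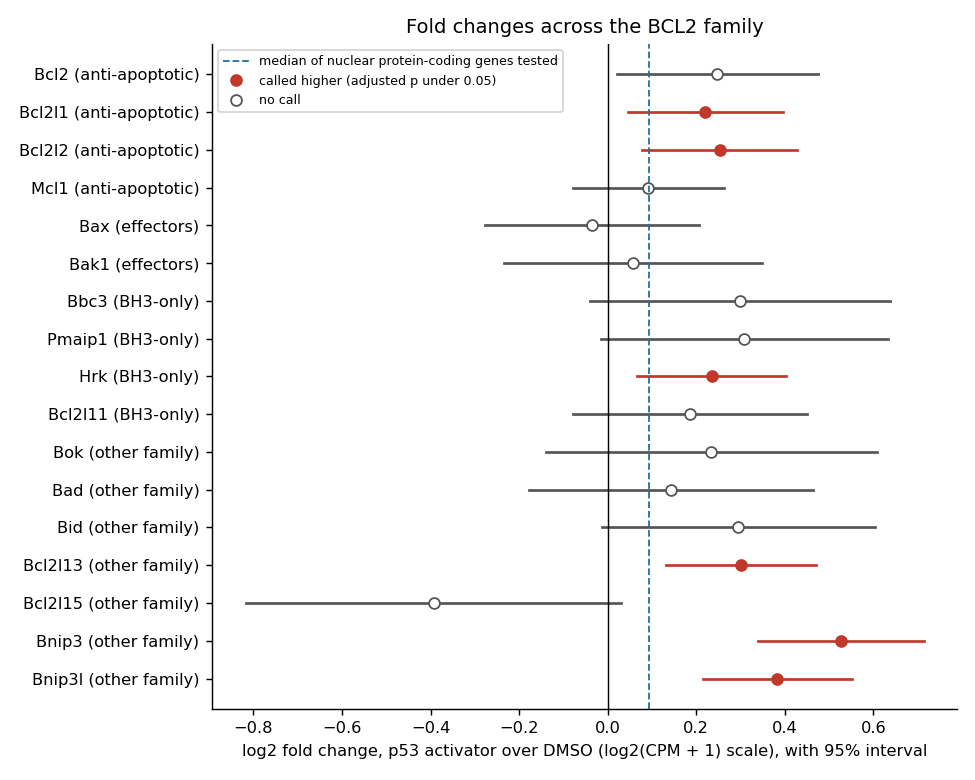
Log2 fold change of p53 activator over DMSO on the log2(CPM + 1) scale with limma's 95% interval, for the 10 members and the 7 other family genes that were tested. Filled red points were called higher, open points were not called, and the dashed line is the protein-coding median of 0.09. Bnip3 at 0.53 lies farthest to the right, and Bax lies at -0.04.

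Members were expressed at very different levels, and the order followed their roles only in part. Bcl2 stood well below the other anti-apoptotic genes, and Hrk well above the other BH3-only genes. Levels between genes were set per length, as CPM per kb of GENCODE vM21 exon bases, averaged over the 4 libraries, since the isoforms used in neurons are not given. Mcl1 came first at 16.7 ± 0.940 CPM per kb (SD, n = 4). Bcl2l2 at 12.03, Bcl2l1 at 11.5, Bax at 10.9 and Hrk at 10.7 CPM per kb followed, and the ranges of each neighbouring pair among these overlapped. Bak1 stood at 4.58 CPM per kb, apart from its neighbours. Bbc3 at 2.72, Pmaip1 at 2.63 and Bcl2 at 2.23 CPM per kb overlapped from each to the next, and Bcl2l11 was lowest at 1.66 CPM per kb. Bcl2 and Bcl2l11 have the longest annotated exon sets, 9157 and 8029 bases, and how the choice of exons moves the order was not tested.

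**Figure D3:**
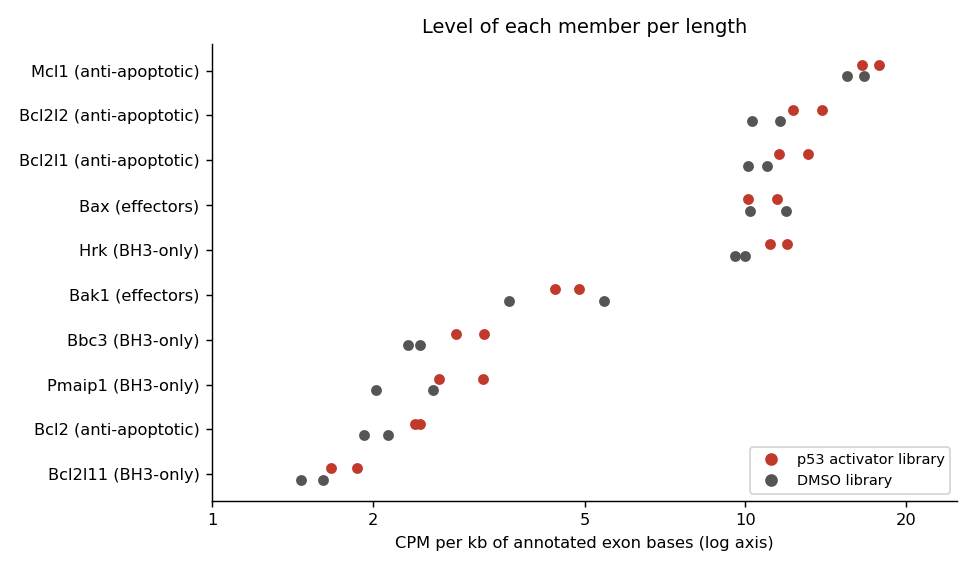
Level of each member in CPM per kb of annotated exon bases on a log axis, with p53 activator libraries drawn above DMSO libraries in each row. Mcl1 is highest at 15.5 to 17.8 CPM per kb and Bcl2l11 lowest at 1.47 to 1.87.

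Ratios between members within a library are unaffected by any single scaling factor of that library. They were taken from CPM without correction for length, with 1576 annotated exon bases for Bax and 9157 for Bcl2. Their size thus does not rank the genes, and per kb Bax stood above Bcl2 (10.9 against 2.23 CPM per kb). The groups can still be compared within each ratio. The ratio of Bax to Bcl2, often read as a balance of death and survival signals, was 0.804 and 0.723 with the activator against 0.961 and 0.913 in DMSO. The groups did not overlap, and the log2 ratio was lower with the activator by a difference of -0.30, from means of -0.39 with the activator and -0.09 in DMSO. Bax to Bcl2l1 was likewise lower, at 0.300 in both activator libraries against 0.373 and 0.346 in DMSO. The ratio of Bbc3 to Bcl2l1 was instead higher with the activator, at 0.114 and 0.115 against 0.103 and 0.106 in DMSO, and the groups did not overlap. Summed over roles, BH3-only to anti-apoptotic genes gave 0.490 and 0.472 with the activator and 0.445 and 0.484 in DMSO, with the groups overlapping. Hrk made up most of the BH3-only sum, with a mean of 65.6 of 94.3 CPM with the activator and 55.6 of 79.4 CPM in DMSO. Without Hrk the ratio was 0.152 and 0.140 with the activator and 0.130 and 0.148 in DMSO, and the groups again overlapped. Effectors to anti-apoptotic genes gave 0.142 and 0.145 with the activator and 0.184 and 0.147 in DMSO, where DMSO replicate 2 lay close to the activator. The ratios are given as values without a test, and the smallest p that an exact two-sided permutation test of 2 libraries against 2 can give is 0.333.

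**Figure D4:**
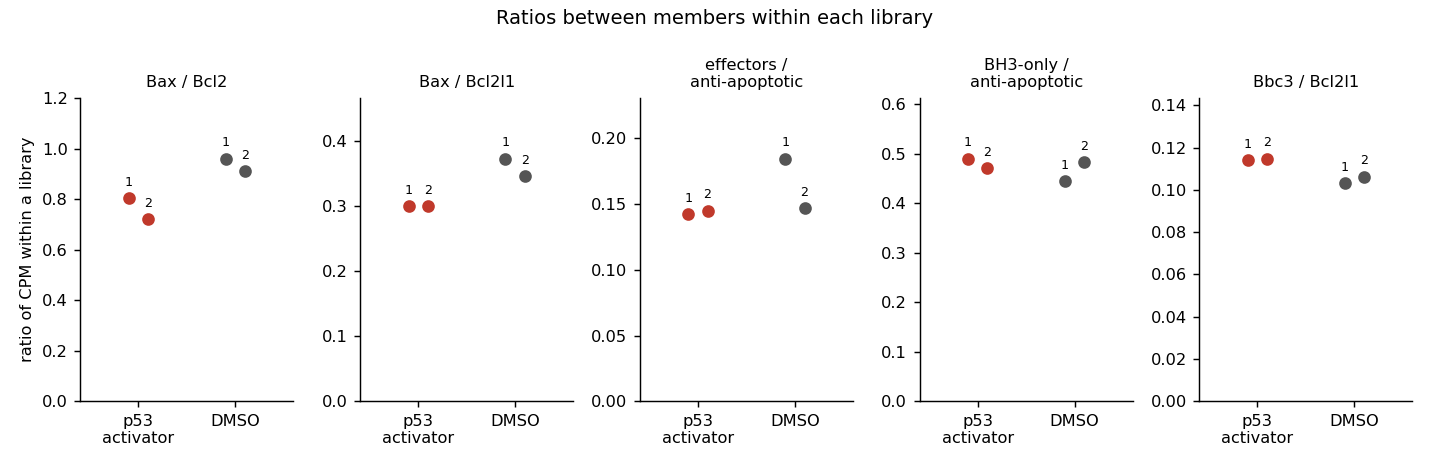
Ratios of CPM between members within each library, not corrected for length and numbered by replicate, with p53 activator left of DMSO. Bax to Bcl2 stands at 0.723 to 0.804 with the activator and 0.913 to 0.961 in DMSO, while the BH3-only to anti-apoptotic ratio overlaps between groups.

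Of 15 other family genes, 9 were listed and 7 tested, and of these Bnip3, Bnip3l and Bcl2l13 rose, 4 did not pass the test and 0 fell, where 21.2% of nuclear protein-coding genes were called higher. As background, all 3 encode proteins of the outer mitochondrial membrane that recruit the autophagy machinery to mitochondria. Bnip3 stood at 46.7 and 44.6 CPM with the activator against 32.4 and 30.4 CPM in DMSO, far apart relative to the replicates (log2 fold change 0.53 ± 0.09 SE, limma adjusted p = 4.66e-06). Bnip3l, which encodes NIX, stood at 73.5 and 68.5 CPM with the activator against 53.002 and 55.3 CPM in DMSO (log2 fold change 0.38 ± 0.08 SE, limma adjusted p = 0.000195). Bcl2l13 stood at 62.4 and 62.8 CPM with the activator against 49.8 and 51.5 CPM in DMSO (log2 fold change 0.30 ± 0.09 SE, limma adjusted p = 0.00395).

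The calls of Bnip3 and Bnip3l held where those of the members did not. Bnip3 was called in all 18 alternatives, with log2 fold changes from 0.38 to 0.57, and Bnip3l in 17 of 18, the exception being limma without an intensity trend (adjusted p = 0.0537). Scaled to the protein-coding total they rose by log2 fold changes of 0.38 and 0.24. Bnip3l has a pseudogene in the table, Bnip3l-ps, at 27.9 and 30.6 CPM with the activator and 24.3 and 22.1 CPM in DMSO, so the split of reads between them is uncertain. Bcl2l13 was not called when scaled to the protein-coding total (adjusted p = 0.201), after cyclic loess (0.146) or quantile normalization (0.0606), with no intensity trend (0.0824) or without DMSO replicate 1 (0.0774), and over all 18 alternatives its log2 fold change ran from 0.15 to 0.33.

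The remaining family genes did not pass the test. Bid, a BH3-only protein cut by caspase 8, stood at 9.34 and 8.81 CPM with the activator against 7.34 and 7.08 CPM in DMSO, apart by group, with a log2 fold change of 0.29 and a limma adjusted p of 0.137. Bad, a BH3-only protein held inactive by phosphorylation and 14-3-3 binding, had a log2 fold change of 0.14, and Bok, a Bax relative, one of 0.23, while Bcl2l15 had -0.39 at a level of 0.903 to 2.47 CPM. Bmf and Bcl2l12 were listed below the filter, at 0.343 to 0.839 and 0.621 to 1.03 CPM. The genes Bcl2a1a, Bcl2a1b, Bcl2a1d, Bcl2l10, Bik and Bcl2l14 were not listed.

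Genes whose proteins bind or regulate the family were also followed. Of 23 partners tested, 19 rose and 0 fell, where 16.9% of all genes and 21.2% of nuclear protein-coding genes were called higher. They had a median log2 fold change of 0.31 beside 0.09 for nuclear protein-coding genes and 0.36 for the 10 neuron markers, whose part in this was not tested. Ppp3r1, the regulatory subunit of calcineurin, the phosphatase that activates Bad, stood at 562 and 474 CPM with the activator against 355 and 347 CPM in DMSO (log2 fold change 0.56, limma adjusted p = 4.00e-08). The 14-3-3 proteins Ywhaz and Ywhah rose by log2 fold changes of 0.45 and 0.39, and Vdac1, a channel of the outer mitochondrial membrane, by 0.40. Scaled to the protein-coding total 9 partners rose and 1, Itpr2, fell, beside 4.37% of genes called higher and 13.1% called lower. After cyclic loess Ppp3r1, Vdac1, Ywhah and Ywhaz were the 4 that rose, beside 5.20% called higher and 9.77% called lower.

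Among 16 transcriptional controllers tested, 5 rose and 1 fell, beside 21.2% of nuclear protein-coding genes called higher and 7.19% called lower, so the count of rises is not far from that share. The JNK genes Mapk9 and Mapk8 rose by log2 fold changes of 0.34 and 0.30, Atf4, a factor of the integrated stress response, by 0.35, and Foxo3, which activates Bcl2l11 and Bbc3, by 0.30. The JNK gene Mapk10 did not pass the test (log2 fold change 0.18, limma adjusted p = 0.0725). Nfkb1, a subunit of NF-kB, was the one that fell, standing at 9.13 and 9.93 CPM with the activator against 14.3 and 13.5 CPM in DMSO (log2 fold change -0.50, limma adjusted p = 0.00302), and without DMSO replicate 1 it was not called at a log2 fold change of -0.46 (adjusted p = 0.0534). Scaled to the protein-coding total, Mapk9 alone of the controllers rose and Nfkb1 fell, beside 4.37% of genes called higher and 13.1% called lower. After cyclic loess no controller rose and Nfkb1 fell, beside 5.20% called higher and 9.77% called lower. Trp53, which encodes p53 itself, did not pass (log2 fold change 0.07), nor did the p53 targets Mdm2 (-0.16) and Cdkn1a (0.19), with limma adjusted p-values of 0.761, 0.166 and 0.215. With 1 library left out the log2 fold change ran from -0.25 to -0.077 for Mdm2 and from 0.068 to 0.31 for Cdkn1a. Mdm2 fell when scaled to the protein-coding total, by a log2 fold change of -0.31 (limma adjusted p = 0.00853), and after cyclic loess, by -0.29 (0.0139). It was not called in edgeR with TMM (-0.20) or DESeq2 (-0.17).

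Of 11 genes that set the stability of family proteins, 7 rose and 0 fell, beside 21.2% of nuclear protein-coding genes called higher and 7 of the 10 neuron markers, whose part in this was not tested. The kinase Gsk3b, which marks Mcl1 protein for destruction, rose by a log2 fold change of 0.33, the mitochondrial ubiquitin ligase Marchf5 by 0.34, the deubiquitinase Usp9x, which stabilises Mcl1 protein, by 0.31, and the survival kinase Akt1, which phosphorylates Bad, by 0.28. Scaled to the protein-coding total, 0 of the 10 genes of this list with a matched class were called by limma. The background on that scale was 4.37% of genes called higher and 13.1% called lower. In edgeR with TMM 4 of 11 rose, beside 10.6% of all genes.

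**Figure D5:**
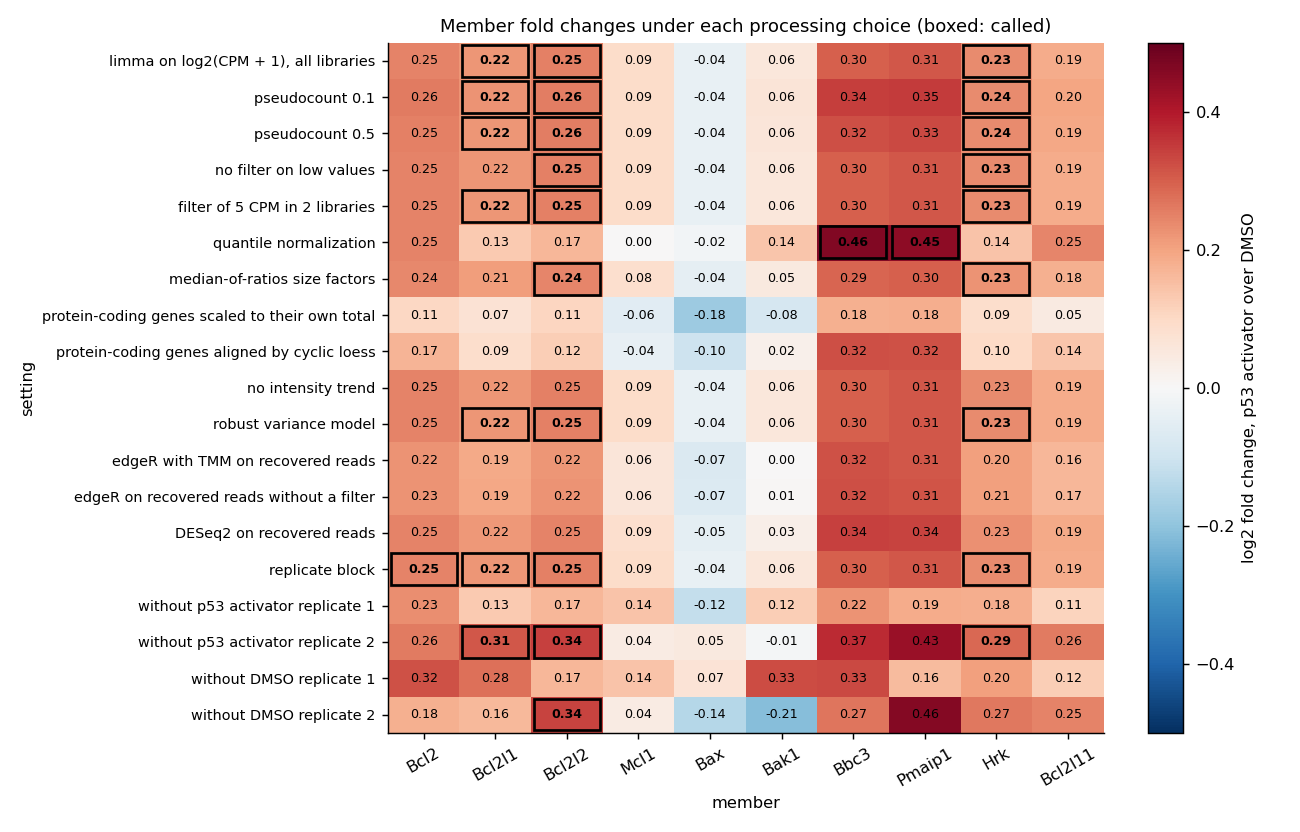
Log2 fold change of each member (columns) under each processing choice (rows), coloured blue below 0 and red above 0, with boxes around called values. Boxes fall mostly on Bcl2l1, Bcl2l2 and Hrk. The rows for the protein-coding scaling, cyclic loess, no intensity trend, edgeR and DESeq2 have none, nor do those without p53 activator replicate 1 or DMSO replicate 1.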

How the data were processed

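Total RNA of 4 libraries was depleted of ribosomal RNA, per the labels' protocols. The submitters' processing notes name TopHat2, Cufflinks 2.0.0 and mm9, with no role for any. The authors deposited 1 table whose unit, CPM, was read from the values: within each column all of them (100% within 0.01 reads) are whole multiples of 1 step, which gave back whole reads. Not given in the sources used here: the program that counted reads, its annotation and its use of strand.

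Genes with at least 1 CPM in 2 libraries were kept (16654 of 18854). limma 3.58.1 in R 4.3.3 tested log2(CPM + 1), a scale that understates the change of low genes, with an intensity trend, two-sided, with Benjamini-Hochberg adjustment and calls under 0.05. There were 2 residual and 98.0 prior degrees of freedom, so each SE and interval rests mostly on the spread of genes of like level. edgeR 4.0.16 and DESeq2 1.42.0 were run on recovered reads. Replicates differed beyond sampling noise (chi-square per degree of freedom 5.16 for the activator and 4.52 for DMSO). Gene classes and exon lengths came from GENCODE vM21, in which 15861 symbols matched 1 gene. In 5 simulated runs, 200 genes of 5 to 80 CPM were changed per run, evenly up and down, and a median of 16544 genes were tested. There limma recovered 27.6% of genes changed 1.25-fold, 80.8% at 1.5-fold and 99.6% at 2-fold, with 3.27% of calls false. The simulation held no shift in library composition and changed far fewer genes than were called here. These shares may therefore not carry over to these data.

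The members and lists were chosen with earlier results of these data known. Named were all members, Trp53, Mdm2 and Cdkn1a, the other family genes tested, the 4 called genes of smallest p of each pathway list and the most abundant gene of each marker list (the summed level of the microglia list and its most abundant gene are not reported here), and any further gene was chosen after its values were seen. Alternatives covered the pseudocount, the filter, the scaling, the variance model, the count tools, a replicate block and each library left out.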

Additional observations from a re-analysis of the deposited data

How the results depend on the processing

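Bcl2l1, Bcl2l2 and Hrk were the 3 members called, and 0 were called by limma with the protein-coding total as the scale, after cyclic loess or without an intensity trend, in edgeR with or without a filter, or in DESeq2, while 0 to 3 were called when 1 library was left out. No member was called lower in any alternative. Over all genes, 2811 rose and 2721 fell, or 50.8% of calls higher. The rises numbered 1632 after quantile normalization, 570 with the protein-coding total (25.03% of calls higher), 678 after cyclic loess (34.7%), 302 without a trend, 1871 in edgeR with TMM (39.7%), 1742 in edgeR without a filter (38.9%), 1279 in DESeq2 and 1140 to 2119 with 1 library left out (lowest without DMSO replicate 1, then 1686 without p53 activator replicate 1), and a filter of 5 CPM raised the share to 61.8%. The falls numbered 1776 at a filter of 5 CPM, 1707 with the protein-coding total, 1274 after cyclic loess, 1493 in DESeq2 and 1367 to 2543 with 1 library left out, lowest without DMSO replicate 1. Of other family genes 1 rose without a trend and 2 to 3 with 1 library left out. Of partners, controllers and stability genes together, 31 rose and 1 fell, against 13 that rose after quantile normalization, 10 with the protein-coding total (where 2 fell), 4 after cyclic loess, 3 without a trend and 19 to 28 with 1 library left out, lowest without p53 activator replicate 1 (0 to 2 fell, 0 without DMSO replicate 1 and 2 without p53 activator replicate 2). The sign turned for Mcl1 with the protein-coding total (-0.056) and after cyclic loess (-0.043), for Bak1 (-0.082) and Trp53 (-0.063) with the protein-coding total, and with 1 library left out for Bax (-0.14 to 0.070), Bak1 (-0.21 to 0.33), Trp53 (-0.024 to 0.17) and Bad (-0.025 to 0.31). The log2 ratio difference of Bax to Bcl2 ran from -0.37 to -0.22 and that of BH3-only to anti-apoptotic genes from -0.01 to 0.11 with 1 library left out. Replicate numbers are shared by label only (correlation of deviations 0.12, 2 pairs). With a replicate block 4 members were called, Bcl2 being the added one (adjusted p = 0.0357), and 3705 genes rose and 3132 fell. The cause of these changes was not tested. Bbc3 and Pmaip1 rest on 74 to 168 reads per library.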
